A study of Mus musculus with 14 samples.

Results

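The Notch pathway is represented here by 10 genes: the receptors Notch1, Notch2 and Notch3, the ligands Dll1, Dll4, Jag1 and Jag2, the DNA-binding factor Rbpj, and the target genes Nrarp and Hes1. They were described by H3K27ac, the histone acetylation found at active promoters and enhancers, and by binding of the transcription factor ONECUT2. A region or site was given to a gene when that gene's span was the nearest protein-coding span in mm10 and lay within 100 kb. This gave 53 of 55050 H3K27ac regions, each 2000 bp long, and 7 of 7268 listed ONECUT2 sites, and the 10 genes were among 15973 genes with at least 1 region. The assignment is by distance and does not show which gene a region acts on.

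In Notch signalling, a ligand on one cell binds a receptor on its neighbour, the receptor is cut, and its intracellular domain moves to the nucleus, where it joins Rbpj and Mastermind-like co-activators to switch on target genes such as Hes1 and Nrarp. Without that domain Rbpj can act with co-repressors. In the intestinal crypt Notch signalling keeps progenitors from becoming secretory cells, with Dll1 and Dll4 presented by Paneth and other secretory cells and Notch1 and Notch2 acting as receptors in the epithelium.

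Libraries came from small intestinal organoids grown from 1 female Lgr5GFPDTR/+ mouse, an allele that places GFP and the diphtheria toxin receptor at Lgr5, and the labels name the line line26 wild type. ChIPmentation was used, in which Tn5 transposase tags chromatin held on the antibody. Control organoids stayed in ENR, the basal medium with EGF, R-spondin 1 and Noggin. The RANKL organoids had 3 days of 3 µM CHIR99021, which activates Wnt signalling, with 1.5 mM valproic acid, a histone deacetylase inhibitor, then a day of ENR, then 100 ng/mL RANKL, the cytokine that drives M cell differentiation, up to day 6. Every difference is therefore between the whole protocol and ENR medium, and effects of RANKL, CHIR99021 and valproic acid cannot be told apart. Each arm had 3 H3K27ac and 3 ONECUT2 libraries from 3 independent differentiation experiments and 1 input library. All libraries share 1 organoid line, so p-values measure the spread between experiments. In such bulk samples, fewer cells with the mark and less of the mark per cell cannot be told apart.

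H3K27ac totals over the regions ran from 5434172 to 9160267 reads in control libraries and from 2745451 to 3902301 in RANKL libraries. Over all 54765 regions tested, weak regions lay higher and strong regions lower with RANKL: the median log2 fold was 0.38 in the weakest 10% of regions and -0.29 in the strongest 10%. Epithelial markers held most of the marker signal, with summed levels of 1634 to 1830 CPM (counts scaled to the size of the library) in control and 1691 to 1741 CPM in RANKL libraries, and 3 of 8 rose and 5 fell. Summed levels at 9 endothelial markers were 448 to 466 CPM in control and 539 to 542 CPM with RANKL (5 rose, 2 fell), at 11 mesenchymal markers 320 to 347 and 419 to 438 CPM (6 rose, 0 fell), and at 5 leukocyte markers 131 to 150 and 163 to 176 CPM (3 rose, 1 fell). Of all tested genes 25.0% rose and 26.9% fell. Markers with no region that could be tested included Tie1, Lum, Cd3e, Cd79a and Cd68. The part of these differences in the results at Notch pathway genes was not tested.

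H3K27ac moved in opposite directions within the pathway. Summed over the regions of each gene, it fell at Notch1, Notch3, Dll4 and Nrarp and rose at Rbpj and Dll1. Notch2, Jag1, Jag2 and Hes1 did not pass the test. These calls rest on counts summed over all regions of a gene and edgeR's quasi-likelihood test with Benjamini-Hochberg adjusted p under 0.05 over 15906 genes. Single regions of a gene could differ from its sum. Counted only from regions within 10 kb of the span, neither Rbpj nor Dll1 was called higher. Across all genes 25.0% rose and 26.9% fell, so 2 and 4 of 10 are close to the share of any genes that moved. The median log2 fold of the 10 genes was -0.09, against 0.01 for all genes. The 3 libraries of the 2 groups did not overlap at 8 of the 10 genes, against 57.3% of all genes.

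**Figure D1:**
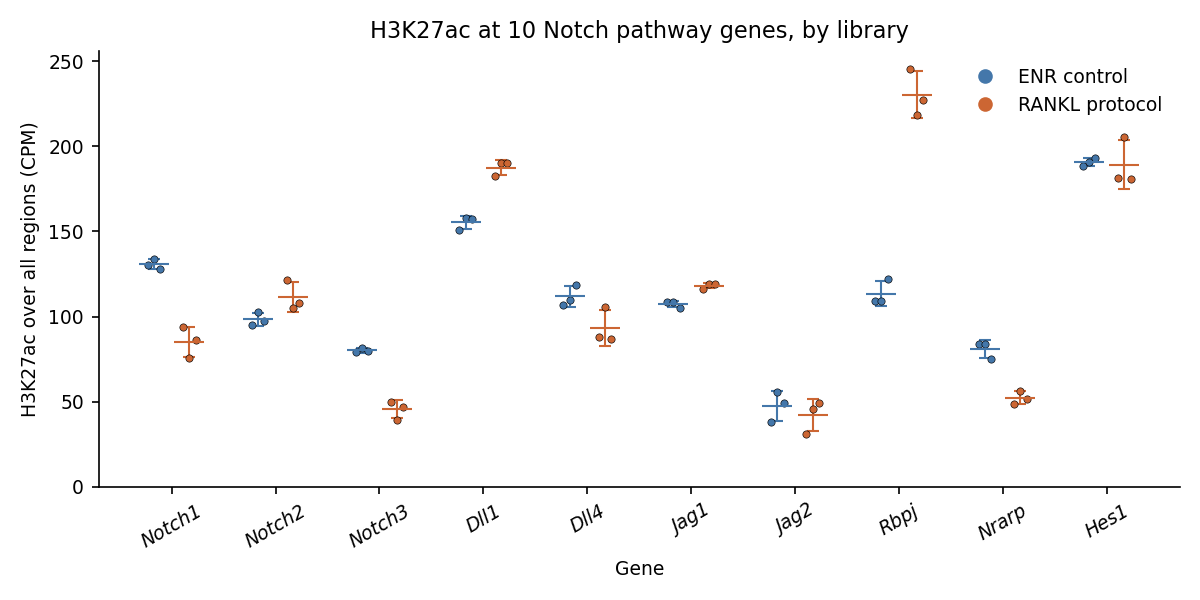
H3K27ac summed over all regions of each gene, in CPM, with 1 point per library and bars for the mean and SD of 3 libraries (ENR control and RANKL protocol). Rbpj lies at 109 to 122 CPM in control and 219 to 245 CPM in RANKL libraries, while Notch1 and Notch3 lie lower in all RANKL libraries than in any control library.

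Region by region, 9 of 53 rose, 16 fell and 28 did not pass the test. Over all tested regions 14.8% rose and 21.0% fell. The median log2 fold was -0.16 at the Notch pathway regions and 0.06 over all regions, and these regions were stronger than most, with a median level of 15.5 CPM against 9.42 CPM. The 2 groups did not overlap at 27 of 53 regions, against 44.9% of all regions. The regions that rose all lay outside gene spans: of 34 regions outside a span and away from a start, 9 rose and 8 fell, while of 10 inside a span and away from a start 0 rose and 3 fell. Of all regions away from a start 17.2% rose and 12.9% fell. These shares were not split by gene span, and the difference by position was not tested.

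**Figure D2:**
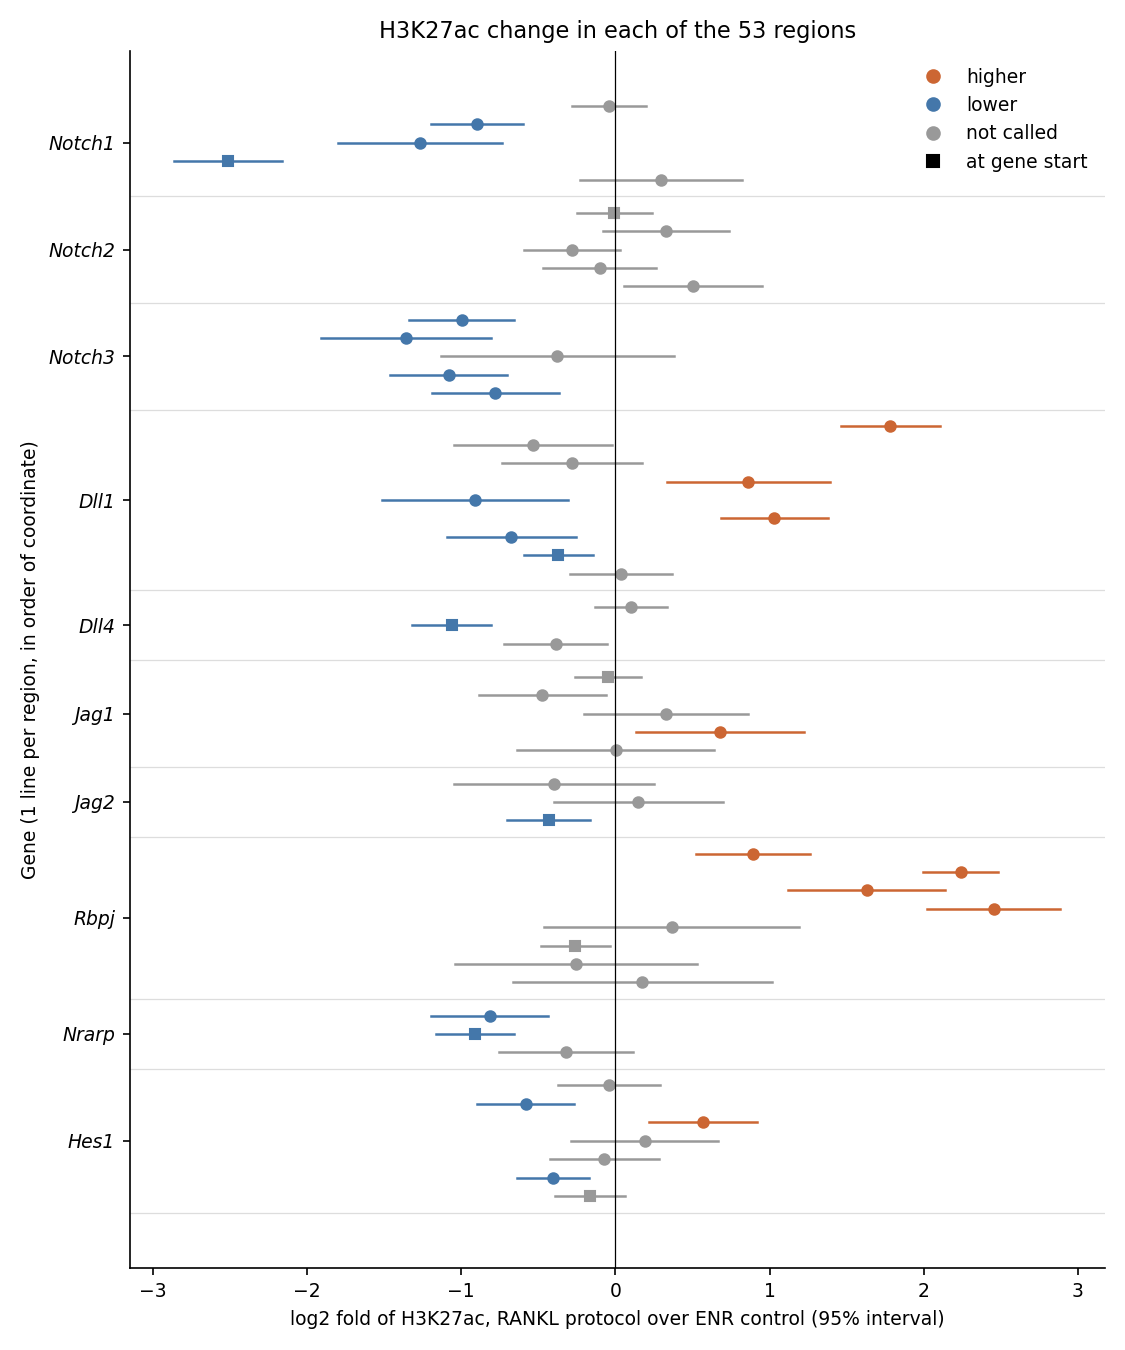
Log2 fold of H3K27ac (RANKL protocol over ENR control) for each of the 53 regions, in order of coordinate within each gene, with 95% intervals from 3 against 3 libraries. Squares mark regions at a gene start, all 9 of which lie below 0, and the regions furthest above 0 belong to Rbpj and Dll1.

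At gene starts, falls were called at a receptor, at ligands and at a target gene. A start region is one within 2 kb of an annotated start, or, for Hes1, of the end of the gene span. Notch3 had none, because the region nearest its start lies 2.10 kb upstream of the gene span. Of the 9 start regions 5 fell (Notch1, Dll1, Dll4, Jag2 and Nrarp), 0 rose, and those of Notch2, Jag1, Rbpj and Hes1 did not pass the test. A fall was common at starts, since 49.8% of all 12082 start regions fell and 6.38% rose, and the median log2 fold of -0.37 at the 9 regions was near the -0.35 of all start regions. Notch1 stood at the end of that range, with 6 of the 12082 start regions having a lower log2 fold. Away from starts, 9 of 44 regions rose and 11 fell, against 17.2% and 12.9% of all such regions.

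**Figure D3:**
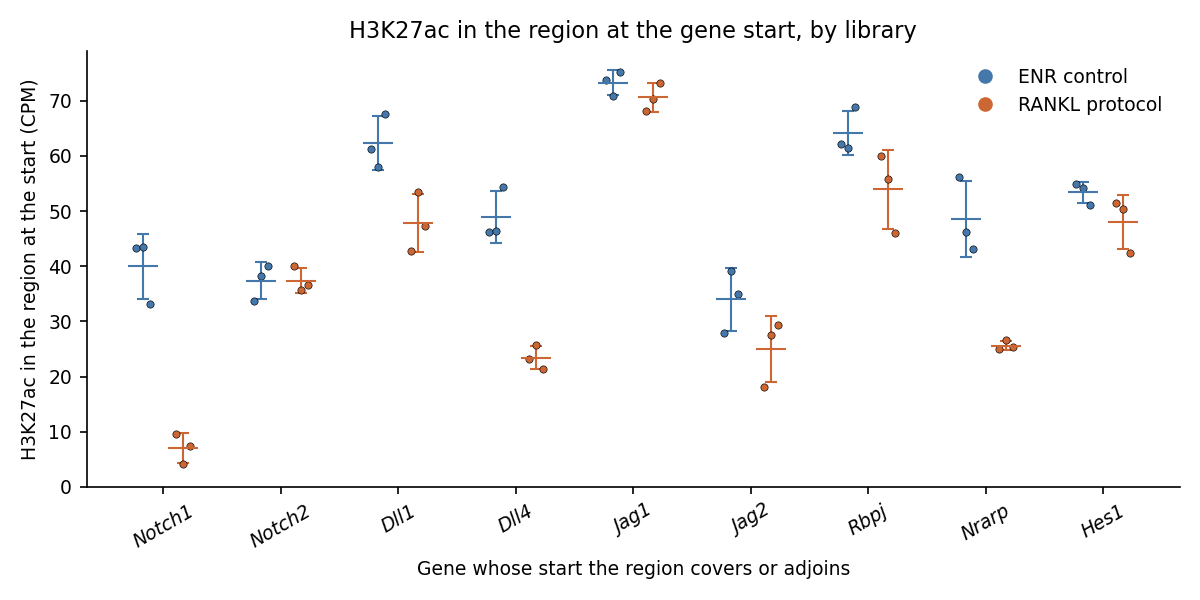
H3K27ac in the region at each gene start, in CPM, with 1 point per library and bars for the mean and SD of 3 libraries. Notch1 falls from 33.2 to 43.6 CPM in control libraries to 4.23 to 9.64 CPM in RANKL libraries, Dll4 and Nrarp are lower in all RANKL libraries, and Jag1 lies near 70 CPM in both groups.

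The 250 bases before the start are shown for the 3 genes with the lowest folds at a start (Notch1, Dll4 and Nrarp) and for Rbpj, whose start differed in its call from its upstream regions. They are RefSeq sequences of GRCm38.p6, written 5′ to 3′ on the gene's strand, from chr2:26503823-26504072 for Notch1 (minus strand), chr2:119325534-119325783 for Dll4, chr2:25180508-25180757 for Nrarp and chr5:53590096-53590345 for Rbpj (plus strand). Capitals mark matches to the RBPJ core TGGGAA on either strand.
Notch1: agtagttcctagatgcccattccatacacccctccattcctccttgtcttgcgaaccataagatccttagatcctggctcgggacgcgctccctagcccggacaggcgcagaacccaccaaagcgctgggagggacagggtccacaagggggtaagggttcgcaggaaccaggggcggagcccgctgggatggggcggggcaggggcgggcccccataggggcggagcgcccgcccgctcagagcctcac
Dll4: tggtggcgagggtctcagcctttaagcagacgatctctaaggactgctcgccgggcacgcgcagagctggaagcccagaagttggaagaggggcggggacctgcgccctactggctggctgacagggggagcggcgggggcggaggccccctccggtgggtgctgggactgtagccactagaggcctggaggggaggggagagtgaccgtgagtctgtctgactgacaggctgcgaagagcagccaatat
Nrarp: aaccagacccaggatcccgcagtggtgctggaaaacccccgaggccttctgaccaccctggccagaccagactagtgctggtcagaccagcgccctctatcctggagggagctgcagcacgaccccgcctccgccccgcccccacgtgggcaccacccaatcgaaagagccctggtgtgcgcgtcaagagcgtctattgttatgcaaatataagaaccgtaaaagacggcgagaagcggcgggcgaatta
Rbpj: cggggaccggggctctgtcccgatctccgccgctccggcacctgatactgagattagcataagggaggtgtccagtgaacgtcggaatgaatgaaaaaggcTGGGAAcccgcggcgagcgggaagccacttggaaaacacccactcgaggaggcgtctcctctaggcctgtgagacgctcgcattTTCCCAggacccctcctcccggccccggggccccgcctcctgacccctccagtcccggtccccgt
The RBPJ core was matched only in the Rbpj promoter among the 9 genes with a promoter entry, at 149 and 65 bases before the first start, the nearer one also falling in the window of a second annotated start, and 21.6% of 32851 mouse promoter windows of this length hold a match. The longer form GTGGGAA (5.42% of promoters) and the ONECUT forms ATCGAT (0.728%) and ATCAAT (6.72%), searched on both strands, were matched at none of the 9 genes. GTGGGAA contains the core. A match is a run of letters and not a bound site, and a missing match says only that the letters are not in this window.

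Among the receptors, Notch1 lost H3K27ac at its start and in the first part of its span, and its other end did not pass the test. In the region over the start (chr2:26502809-26504809), levels were 43.3, 43.6 and 33.2 CPM in control replicates 1 to 3 and 9.64, 4.23 and 7.48 CPM in RANKL replicates 1 to 3. The lowest control library was well above the highest RANKL library. The level fell 5.71-fold, with a log2 fold of -2.51 ± 0.18 (SE, n = 3 and 3, edgeR adjusted p = 1.08e-37). In the strongest region of the locus, at the 3′ end inside the span (chr2:26457837-26459837), levels were 43.5, 37.0 and 38.1 CPM in control and 43.2, 36.2 and 35.9 CPM with RANKL. These libraries overlapped, and the difference of -0.04 ± 0.12 had a 95% interval from -0.28 to 0.20 (edgeR adjusted p = 0.831). The start and the 3′ end were therefore at similar levels in control organoids and far apart with RANKL.

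The regions between them fell as well. The region 20.6 kb inside the start fell from 31.7 ± 3.88 to 16.9 ± 2.09 CPM (SD of 3 libraries; log2 fold -0.90 ± 0.15 SE, edgeR adjusted p = 7.51e-08), and the weaker one 7.62 kb inside from 12.0 ± 0.68 to 5.05 ± 0.97 CPM (-1.27 ± 0.27, 2.52e-05). A region 21.1 kb upstream of the start, at 7.27 and 9.13 CPM, did not pass the test (0.30 ± 0.27). Summed over its 5 regions, Notch1 (chr2:26457902-26503822) had 131, 134 and 128 CPM in control and 93.7, 75.8 and 86.0 CPM with RANKL (log2 fold -0.63 ± 0.08, edgeR adjusted p = 2.77e-10).

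Notch2, the other main epithelial receptor, showed no region past the test in any of 5. Its start region (chr3:98012502-98014502), also its strongest, had 33.6, 38.3 and 40.1 CPM in control and 40, 35.6 and 36.7 CPM with RANKL. The groups overlapped, and the log2 fold of -0.01 ± 0.12 had an interval from -0.25 to 0.24. The 4 regions further inside the span ran from -0.28 ± 0.16 to 0.50 ± 0.23, with edgeR adjusted p of 0.0691 to 0.719, and these extremes were called without RANKL replicate 1 (edgeR adjusted p = 0.0458) and without RANKL replicate 2 (0.0192), in that order. The whole locus was at 98.4 ± 3.90 CPM in control and 112 ± 8.76 CPM with RANKL (log2 fold 0.17 ± 0.08, edgeR adjusted p = 0.0629, interval 0.01 to 0.33), and it passed the threshold without control replicate 2 or without RANKL replicate 2 (edgeR adjusted p = 0.0458 and 0.0461). All 5 regions lie in or over the span, so counting regions within 10 kb uses the same reads. With the scaling recomputed on such regions of all genes, the locus was called higher (0.21, edgeR adjusted p = 0.0231). Within 2 kb of the Notch2 ends lies only the start region, given above at -0.01. Scaled over such regions alone, it was called higher (0.32, edgeR adjusted p = 0.0153).

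At Notch3, a receptor best known from vascular smooth muscle and pericytes, 4 of 5 regions fell. All 5 lie away from a start, where 12.9% of all regions fell. The region nearest its start, 2.10 kb upstream (chr17:32168997-32170997), had 20.7, 14.3 and 15.2 CPM in control and 12.1, 9.06 and 8.20 CPM with RANKL (log2 fold -0.78 ± 0.21 SE, edgeR adjusted p = 0.00117). The strongest region, 20.7 kb beyond the 3′ end (chr17:32098072-32100072), had 22.8, 26.2 and 27.8 CPM in control and 14.3, 9.36 and 14.7 CPM with RANKL (-1.0 ± 0.17, 1.34e-07). Both had every RANKL library below every control library. The regions 3.48 kb inside the start (-1.08 ± 0.19) and 1.60 kb beyond the 3′ end (-1.36 ± 0.28) fell too, and a weak one in the middle of the span, at 4.93 CPM in control, did not pass the test (-0.38 ± 0.39).

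Summed, Notch3 (chr17:32120820-32166896) had the lowest log2 fold of the 10 genes. It was at 79.1, 81.5 and 79.8 CPM in control and 49.8, 39.6 and 47.1 CPM with RANKL (-0.82 ± 0.10 SE, edgeR adjusted p = 6.29e-11).

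Among the ligands, the 2 Delta-like genes, which signal from secretory cells to their neighbours, fell at their starts, and only Dll1 gained elsewhere. The Dll4 start region (chr2:119324658-119326658) had 46.2, 46.3 and 54.4 CPM in control and 23.2, 25.7 and 21.5 CPM with RANKL. The groups were far apart, 2.09-fold lower with RANKL (log2 fold -1.06 ± 0.13 SE, edgeR adjusted p = 6.07e-14). A second strong region 6.13 kb upstream (chr2:119317649-119319649), the stronger one over all 6 libraries, had 38.3, 40 and 45.0 CPM in control and 41.4, 48.3 and 42.4 CPM with RANKL. There the groups overlapped (0.10 ± 0.12, interval -0.13 to 0.34), and so the upstream region held more H3K27ac than the start region with RANKL and less in control. The remaining region, 1.53 kb beyond the 3′ end, did not pass the test (-0.39 ± 0.17, edgeR adjusted p = 0.0628), and fell without RANKL replicate 2 (-0.65, 0.0043). The Dll4 locus as a whole (chr2:119325784-119335666) went from 112 ± 6.19 to 93.5 ± 10.7 CPM (-0.26 ± 0.08, edgeR adjusted p = 0.00566), a call lost without RANKL replicate 3 (edgeR adjusted p = 0.0699).

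Dll1 (chr17:15367354-15376932) had 9 regions, of which 3 rose and 3 fell, against 14.8% and 21.0% of all tested regions. Its start region (chr17:15374906-15376906) had 61.3, 58.0 and 67.7 CPM in control and 42.8, 53.4 and 47.3 CPM with RANKL (log2 fold -0.37 ± 0.11 SE, edgeR adjusted p = 0.00523). This was a small fall with no overlap, near the median of all start regions, and it was no longer called once the trend of fold with signal strength was removed (-0.09), or without control replicate 3 or RANKL replicate 1 (edgeR adjusted p = 0.0555 and 0.0542). The region furthest downstream, 95.9 kb beyond the 3′ end (chr17:15269429-15271429), had 7.92, 12.7 and 9.0 CPM in control and 31.4, 40.2 and 34.0 CPM with RANKL. It rose 3.44-fold (1.78 ± 0.16, edgeR adjusted p = 5.52e-24), and the next nearest gene, Fam120b, is 125 kb away.

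The other downstream regions of Dll1 did not move as a block. Regions 39.8 kb (1.03 ± 0.18 SE) and 66.2 kb (0.86 ± 0.27) beyond the 3′ end rose, while regions 9.60 kb (-0.67 ± 0.21) and 57.7 kb (-0.91 ± 0.31) beyond it fell. The region at 39.8 kb rose from 11.7 ± 1.62 to 24.2 ± 4.52 CPM (SD of 3 libraries). The calls at 9.60 kb (without control replicate 1 or RANKL replicate 3, edgeR adjusted p = 0.101 and 0.133), 57.7 kb (without control replicate 2 or RANKL replicate 2, 0.0823 and 0.06) and 66.2 kb (without RANKL replicate 3, 0.051) each rested on single libraries. The other 3 regions, 1 of them upstream of the start, did not pass the test, and the 1 at 80.8 kb fell without RANKL replicate 3 (0.0305). Summed over the locus, Dll1 went from 155 ± 3.98 to 187 ± 4.49 CPM (0.27 ± 0.06, edgeR adjusted p = 0.000165) on the gene scaling, which puts RANKL levels above the sums of region levels. That rise rests on the downstream regions: counting only regions within 10 kb of the span, the log2 fold was -0.13 (edgeR adjusted p = 0.168).

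At the Jagged ligands, 1 of 8 regions rose and 1 fell, no more than the 14.8% and 21.0% of all tested regions. The Jag1 start region (chr2:137115795-137117795) was the strongest of the 9 start regions and had 73.8, 70.9 and 75.2 CPM in control and 68.2, 70.3 and 73.3 CPM with RANKL (log2 fold -0.05 ± 0.11 SE, interval -0.26 to 0.17, edgeR adjusted p = 0.777). A weak region 36.5 kb upstream (chr2:137153028-137155028) had 5.41, 6.60 and 6.00 CPM in control and 8.93, 10.3 and 9.89 CPM with RANKL (0.68 ± 0.28, edgeR adjusted p = 0.042), a call lost when any library but RANKL replicate 1 was left out (p of 0.0509 to 0.114 from edgeR). The other 3 Jag1 regions did not pass the test (the region 16.6 kb upstream, at -0.48 ± 0.21, did without control replicate 3, RANKL replicate 1 or RANKL replicate 2, edgeR adjusted p of 0.0391 to 0.0467), nor did the locus (chr2:137081451-137116520), at 107 ± 1.94 and 118 ± 1.50 CPM (0.14 ± 0.07, interval -0.01 to 0.29). Within 2 kb of the Jag1 ends lies only the start region, given above at -0.05. With the scaling recomputed on such regions of all genes, it was called higher (0.29, edgeR adjusted p = 0.00396).

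At Jag2 (chr12:112907803-112929812) the start region (chr12:112927511-112929511) was the only one of 3 to pass. It had 27.8, 39.2 and 35.1 CPM in control and 18.2, 27.5 and 29.4 CPM with RANKL, so the groups overlapped (log2 fold -0.43 ± 0.14 SE, edgeR adjusted p = 0.0062). Leaving out control replicate 2 or RANKL replicate 1 ended the call (edgeR adjusted p = 0.172 and 0.136). The locus was at 47.7 ± 8.89 and 42.1 ± 9.44 CPM (-0.18 ± 0.12, interval -0.42 to 0.07). It passed the threshold without control replicate 1 (edgeR adjusted p = 0.0448).

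At Rbpj, the DNA-binding factor through which all Notch receptors act, the 4 regions more than 20 kb upstream of the gene span all rose and no other region did. The strongest of them, 84.6 kb upstream of the span (chr5:53469220-53471220), had 17.8, 15.6 and 18.6 CPM in control and 84.3, 78.2 and 80.5 CPM with RANKL. It lies 119 kb from the nearest annotated start, because the span begins upstream of that start. The groups were wide apart and the replicates close together, with a 4.72-fold rise (log2 fold 2.24 ± 0.12 SE, edgeR adjusted p = 9.56e-58). The region 45.1 kb upstream (chr5:53508680-53510680), nearly bare in control at 2.90, 5.06 and 5.25 CPM, reached 30.7, 19.6 and 24.6 CPM with RANKL (5.49-fold, 2.46 ± 0.22, 6.11e-25). The regions at 63.9 kb (4.90 ± 0.99 to 15.0 ± 2.32 CPM, 1.63 ± 0.26) and 91.5 kb (11.5 ± 1.69 to 21.0 ± 2.49 CPM, 0.89 ± 0.19) rose as well.

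The Rbpj start region (chr5:53589349-53591349) did not join them. It had 62.2, 61.5 and 68.8 CPM in control and 60.0, 55.9 and 46.1 CPM with RANKL, lower in all 3 RANKL libraries but not past the test (log2 fold -0.26 ± 0.11 SE, edgeR adjusted p = 0.0596), which it passed without control replicate 2 or RANKL replicate 1 (0.0321 and 0.0309). With RANKL the region 84.6 kb upstream of the span, at 81.0 ± 3.06 CPM, exceeded the start region at 54.0 ± 7.15 CPM, where in control it was at 17.3 ± 1.52 against 64.2 ± 4.03 CPM (SD, n = 3). The 3 remaining regions, of 3.13 to 4.55 CPM in control, did not pass the test.

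The 4 upstream regions together held 31.9% to 34.6% of the Rbpj signal in control libraries and 66.2% to 70.2% in RANKL libraries. These 4 are the regions called higher, and the 20 kb limit was not set in advance. The split therefore describes those calls and does not test them. On the region scaling their sum went from 38.1 ± 4.14 to 142 ± 11.5 CPM, and the other 4 regions from 75.0 ± 4.41 to 65.3 ± 5.08 CPM. The values of the whole locus are on the gene scaling, which puts RANKL levels higher, so these sums do not add up to them. The locus (chr5:53555779-53657445) had 109, 109 and 122 CPM in control and 245, 219 and 227 CPM with RANKL, a 2.03-fold rise (1.02 ± 0.06 SE, edgeR adjusted p = 1.33e-23) and the largest of the 10 genes. Counting only regions within 10 kb of the span, it was -0.04 (edgeR adjusted p = 0.762). The protein-coding gene next nearest to any of the 4 regions is Smim20, 184 kb away.

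**Figure D4:**
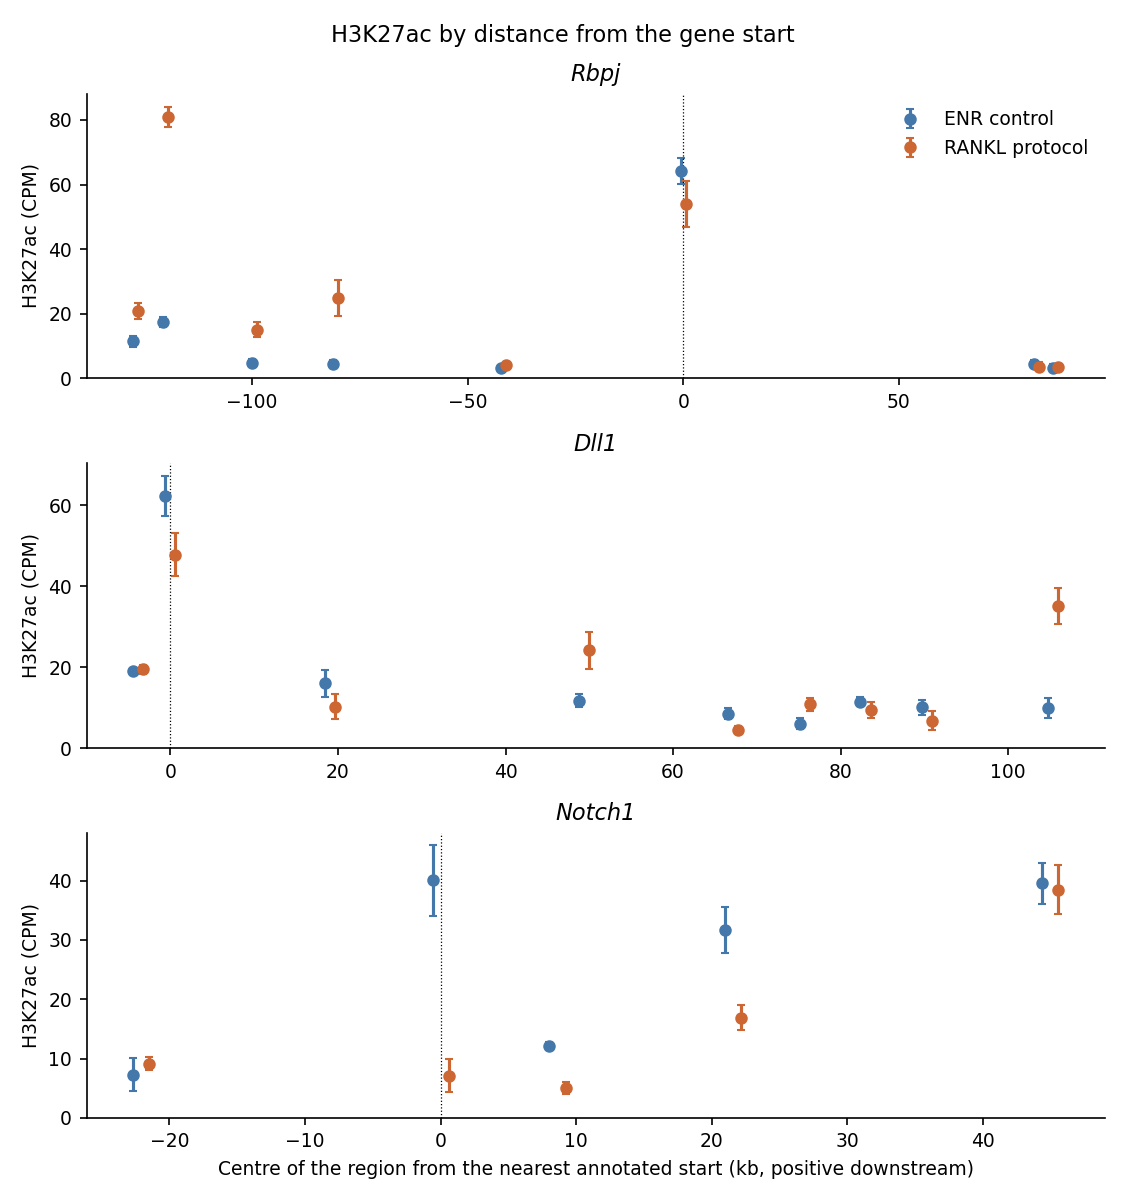
Mean H3K27ac (CPM, bars show the SD of 3 libraries) in each region of Rbpj, Dll1 and Notch1 against the distance of the region's centre from the nearest annotated start in kb, positive downstream; control and RANKL points are set slightly left and right of the true position. Rbpj gains upstream and Dll1 gains downstream of the gene, neither gains at the start, and Notch1 loses most at the start and lies at similar levels in both groups at the far end.

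Of the target genes, Nrarp, which encodes a feedback inhibitor of the Notch complex, fell and Hes1 did not pass the test as a locus. The Nrarp start region (chr2:25179663-25181663) had 56.2, 46.2 and 43.1 CPM in control and 25.0, 26.6 and 25.3 CPM with RANKL. It fell 1.88-fold with no overlap (log2 fold -0.91 ± 0.13 SE, edgeR adjusted p = 6.24e-11). A region 6.92 kb upstream fell alike (19.5 ± 3.19 to 11.1 ± 2.67 CPM, -0.82 ± 0.19, 0.000143), and a weaker one 1.53 kb beyond the 3′ end did not pass (-0.32 ± 0.22, 0.269). Nrarp as a whole (chr2:25180758-25183339) had 83.9, 84.0 and 75.0 CPM in control and 49.0, 56.5 and 51.5 CPM with RANKL (-0.63 ± 0.10, edgeR adjusted p = 5.78e-08).

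Hes1 encodes a repressor of the secretory-fate gene Atoh1. The region at its start (chr16:30063306-30065306) had 54.9, 54.1 and 51.2 CPM in control and 51.4, 50.4 and 42.4 CPM with RANKL (log2 fold -0.16 ± 0.12 SE, interval -0.39 to 0.06, edgeR adjusted p = 0.283). The locus (chr16:30065357-30067796) was at 191 ± 2.36 and 189 ± 14.2 CPM (-0.01 ± 0.06, interval -0.13 to 0.11). So the 2 target genes differed in their calls, and their intervals did not overlap (Nrarp -0.82 to -0.44); the difference between them was not tested.

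Around Hes1 single regions moved both ways. The region 55.2 kb away on the lower-coordinate side (chr16:30008119-30010119) had 26.1, 25.1 and 26.4 CPM in control and 17.9, 20.2 and 14.2 CPM with RANKL, below control in every library (log2 fold -0.58 ± 0.16 SE, edgeR adjusted p = 0.00143), though it was not called once the signal trend was removed (-0.37, 0.07). The region 30.1 kb away on that side (chr16:30033213-30035213) had 14.1, 12.8 and 15.8 CPM in control and 13.6, 24.8 and 23.1 CPM with RANKL (0.57 ± 0.18, 0.00602). RANKL replicate 1 lay within the control range there, and the call was lost without control replicate 2, RANKL replicate 2 or RANKL replicate 3 (edgeR adjusted p = 0.0683, 0.0905 and 0.0718). A strong region 8.69 kb away fell from 51.0 ± 1.46 to 38.5 ± 6.17 CPM (-0.41 ± 0.12, 0.00325), a call also lost with the trend removed (-0.10, edgeR adjusted p = 0.523), and 3 others did not pass.

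In an added test, chosen after the data were seen, the regions of a gene were compared with one another (edgeR's test for differing folds among the parts of a gene). They differed at 6 of the 10 genes, against 54.3% of the 9740 genes tested: Rbpj (edgeR adjusted p = 2.35e-46), Dll1 (9.12e-30), Notch1 (6.85e-25), Dll4 (6.51e-09), Hes1 (0.000153) and Jag1 (0.0267). Against the fold over all regions of its gene, and in natural logs rather than log2, the Rbpj start lay at -0.79 (edgeR adjusted p = 9.38e-21). On that scale the Notch1 start lay at -1.21 (edgeR adjusted p = 1.25e-17) and the Notch1 3′ end at 0.50 (1.79e-07). At Notch3, Nrarp, Jag2 and Notch2 the regions were not shown to differ (0.357, 0.123, 0.261 and 0.0566).

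The order of the start regions, each of the same 2000 bp length, changed mainly at its lower end. In control organoids Jag1 was highest (73.3 CPM), then Rbpj (64.2) and Dll1 (62.3), then Hes1 (53.4), Dll4 (49.0), Nrarp (48.5), Notch1 (40), Notch2 (37.3) and Jag2 (34.0). Beyond their SDs, only Jag1 and Rbpj, and Dll1 and Hes1, were apart as neighbours. With RANKL the order was Jag1 (70.6 CPM), Rbpj (54.0), Hes1 (48.1), Dll1 (47.8), Notch2 (37.4), Nrarp (25.6), Jag2 (25.0), Dll4 (23.4) and Notch1 (7.11), with Jag1 and Rbpj, Dll1 and Notch2, Notch2 and Nrarp, and Dll4 and Notch1 apart.

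ONECUT2, a transcription factor of the cut-homeobox family, was compared through the authors' deposited table, which gives a mean normalised read count per condition and no value per library. The table lists 7 sites at 5 of the genes, all higher with RANKL, but this was the direction of 7261 of the 7268 sites listed, and, by the ranks of the listed p-values, 94.0% of the sites tested were listed. In the authors' deposited table the median log2 fold was 1.91 at the 7 sites and 1.86 at all sites. These log2 folds are the authors' own values. At each of the 7 sites they lie somewhat below the log2 ratio of the mean counts printed with them. Of all genes with a region, 26.9% had at least 1 site. No site was listed at Notch1, Notch3, Jag2, Rbpj or Nrarp, so neither the Notch1 start nor the upstream regions of Rbpj held a listed site. Only sites with FDR up to 0.0496 are listed, so a site bound alike in both groups would not appear.

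The strongest site was at Hes1. In the authors' deposited table the site 30.0 kb from the gene (chr16:30034963-30035363) had 8.53 normalised reads in control and 75.1 with RANKL (log2 fold 3.04, FDR 2.15e-15, rank 179 by p). It overlaps by 251 bp the Hes1 region that rose in H3K27ac but whose call rests on RANKL replicates 2 and 3. A second Hes1 site, 5.64 kb from the gene (chr16:30073432-30073832), had 9.75 and 45.9 reads in the authors' deposited table (2.16, FDR 4.41e-08) and lies in no H3K27ac region.

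At the other genes sites lay in or near regions of unlike change. In the authors' deposited table, Notch2 had a site of 16.8 and 63.8 reads inside the gene (chr3:98030880-98031280, log2 fold 1.88, FDR 4.38e-09), within a region whose H3K27ac did not pass the test (-0.28), and a weaker one of 2.95 and 13.1 reads (chr3:98020547-98020947, 1.91, FDR 0.00301). The Jag1 site (chr2:137147861-137148261) had 6.00 and 21.1 reads in the authors' deposited table (1.72, FDR 0.000437) and overlaps a region with no called change (0.33). The Dll1 site (chr17:15272944-15273344) had 4.79 and 22.5 reads in the authors' deposited table (2.06, FDR 5.00e-05) and lies 1.51 kb from the downstream region that rose 3.44-fold. The Dll4 site (chr2:119322076-119322476) had 24.4 and 45.4 reads in the authors' deposited table, the smallest fold of the 7 (0.86, FDR 0.00545), and lies 2.18 kb from the start region that fell. Thus 3 of the 7 sites lay in an H3K27ac region, against 40.6% of all listed sites, and 3 of the 53 regions held a site, against 5.32% of all regions. Of all 2925 tested regions with a site, 22.6% rose and 26.3% fell in H3K27ac.

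**Figure D5:**
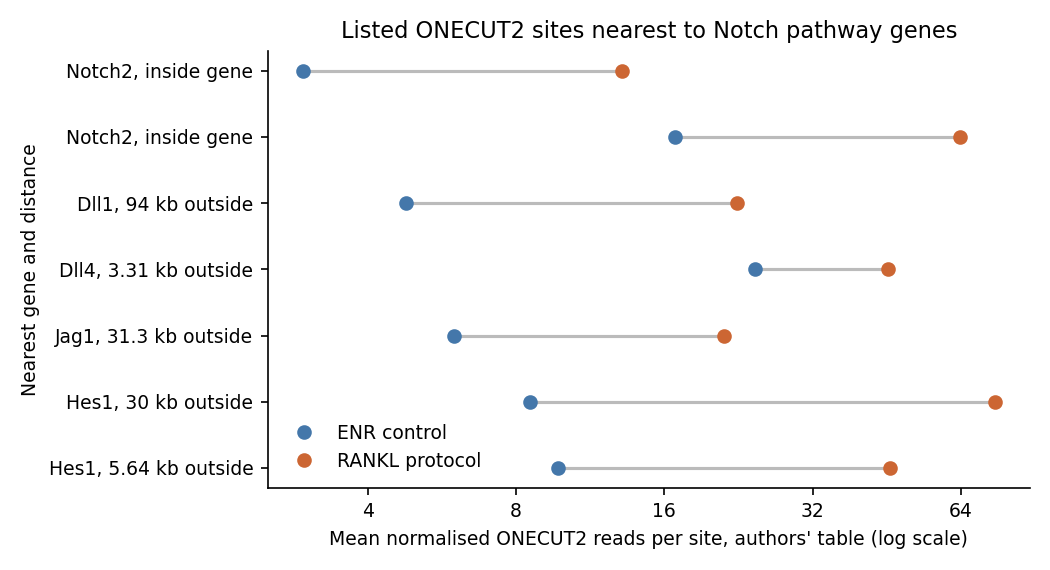
Mean normalised ONECUT2 reads per site (log2 axis) in ENR control and RANKL protocol for the 7 listed sites, from the authors' deposited table, without error bars because the table has no values per library. All 7 sites are higher with RANKL, from 24.4 to 45.4 reads at Dll4 up to 8.53 to 75.1 reads at the Hes1 site 30.0 kb outside the gene.

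Of 55 other genes listed for the pathway, 51 had a region to test, of which 13 rose, 12 fell and 26 did not pass. These shares are near the 25.0% of all genes that rose and the 26.9% that fell, and the median log2 fold was -0.02 against 0.01 for all genes. With other settings on the same regions 10 to 13 rose and 11 to 14 fell. The groups below are small, were not tested as groups, and are to be read against the same shares of all genes. Of 10 nuclear cofactors of Rbpj 6 rose (25.0% of all genes) and 2 fell (26.9%). Among them the Mastermind-like co-activators Maml2 (94.7 ± 10.6 to 228 ± 8.45 CPM, log2 fold 1.25 ± 0.07 SE, edgeR adjusted p = 3.97e-27) and Maml1 (107 ± 2.53 to 183 ± 7.11 CPM, 0.78 ± 0.07, 1.13e-16) rose while Maml3 fell (-0.19 ± 0.04). The co-repressors Tle3 and Spen and the cofactor Snw1 were also among those that rose, and Ctbp1 fell. Of 4 ubiquitin ligases that act on the ligands inside the sending cell 3 rose (25.0% of all genes), with Neurl1b and Mib1 higher and Mib2 lower. The remaining higher one, Neurl1a (42.9 ± 7.82 to 159 ± 4.15 CPM, 1.87 ± 0.09, edgeR adjusted p = 7.77e-31), was not called from regions within 2 kb of its ends (0.61, 0.0611).

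Of 5 further receptor and ligand genes 1 rose and 1 fell. Notch4, a receptor of endothelium, fell (109 ± 5.09 to 47.5 ± 5.60 CPM, -1.18 ± 0.09, edgeR adjusted p = 1.87e-18), and the non-canonical ligand gene Dlk1 rose (15.9 ± 2.63 to 32.4 ± 0.77 CPM, 1.01 ± 0.16, 2.28e-07). Of 6 other Hes and Hey family genes tested 0 rose and 2 fell, against 26.9% of all genes lower. The 2 that fell were Hes6 (92.3 ± 3.59 to 45.2 ± 5.18 CPM, -1.03 ± 0.10, edgeR adjusted p = 5.74e-15) and Hes7 (30.8 ± 1.76 to 16.3 ± 2.66 CPM, -0.93 ± 0.16, 1.25e-06), each through 1 region. Of 4 secretory-lineage genes 0 rose and 2 fell, against the same share, namely the goblet and Paneth cell factor Spdef (34.4 ± 2.14 to 19.0 ± 2.47 CPM, -0.87 ± 0.15, 1.21e-06) and Atoh1 (-0.26 ± 0.10, 0.0223). When a gene was counted from regions no further than 2 kb from its ends, Notch4 (-0.25) and Spdef (0.40) were not called.

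The proteases that cut the receptors were mixed. Ncstn, a part of gamma-secretase, was among the 2 of 9 that rose (0.47 ± 0.10), while Psen2 (-0.54 ± 0.07), Aph1c (-0.77 ± 0.25) and the ectodomain sheddase Adam10 (-0.36 ± 0.11) fell, and 4 of 9 did not pass the test. Of 5 glycosyltransferases, which set how receptors read ligands, Poglut1 rose (0.31 ± 0.13). Of 9 modulators Dtx4 fell (-0.23 ± 0.05).

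Among all other tested genes, those whose log2 CPM over the 6 libraries, centred on their mean, lay nearest to Rbpj were Spaca7, Gstp3 and Gramd1b (root mean square differences of 0.0403, 0.0454 and 0.0582). Nearest to Notch3 were Suco (0.0291), Spdef (0.0482), which is also on the pathway list, and Dhrs1 (0.0485). Nearest to Nrarp were Gm40349 (0.0351), Spring1 (0.0391) and H2ax (0.0402).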

How the data were processed

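H3K27ac was measured in 6 libraries and ONECUT2 in 6, with 2 input libraries, which were not analysed here. The authors deposited raw read counts for 55050 H3K27ac regions of 2000 bp, and for ONECUT2 a DiffBind comparison (named in the submitters' processing notes). Per the file headers, the authors' deposited ONECUT2 table gives log2 mean normalised read counts, a log2 fold, a p-value and an FDR. The submitters' processing notes name the build mm10. No aligner, peak caller, treatment of duplicates or version was given in the sources used here. A second H3K27ac table was not used. Coordinates are as deposited, and whether region starts count from 0 is not given there.

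The quasi-likelihood test of edgeR 4.0.16 was run in R 4.3.3 with TMM scaling and filterByExpr, and all 53 Notch pathway regions passed the filter, with 6 to 644 reads per library. Each SE is the log2 fold divided by the root of the F statistic. Region and gene CPM were scaled separately, and the gene scaling puts RANKL levels higher. At Rbpj the 2 sets of regions had mean sums of 142 and 65.3 CPM with RANKL, and the gene level was 230 CPM. In control the sums were 38.1 and 75.0 CPM, and the gene level was 113 CPM. Gene log2 folds therefore lie above those of summed region levels. Gene spans and promoters came from RefSeq (GRCm38.p6). A gene's value is the sum over its regions. The comparison used RANKL against control, 3 libraries each, and the tests were checked on simulated data. Within a group, libraries differed by more than sampling noise (chi-square per degree of freedom 1.79 to 2.06). Both arms are numbered by experiment in the labels, and the correlations of same-numbered deviations were 0.01, -0.03 and -0.01 over regions.

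The genes and lists were chosen with earlier results of these data known. Regions given per library were fixed by rule: the one at or nearest the start, the called one with the smallest adjusted p in each direction, and the one with the highest mean. Up to 4 called pathway genes per direction, by the size of the log2 fold, are given with levels, as are the 3 genes nearest in pattern to each of the 3 genes that changed most; the other called pathway genes were named after their values were seen, and a few listed genes are not reported here by name. Alternatives were scaling by library size only, DESeq2 1.42.0, no count filter, a replicate block, removal of the trend of fold with signal, nearer regions only, and leaving out each library.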

Additional observations from a re-analysis of the deposited data

How the results depend on the processing

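The counts of called regions stayed near 9 higher and 16 lower under all settings run (6 to 10 and 13 to 17), and 6 to 9 and 15 to 17 when 1 library was left out. With 1 library left out, 2 to 3 genes were higher and 3 to 5 lower. With the replicate block, by experiment number, the counts were 9 and 16 regions and 2 and 4 genes, and no call changed among these; of the 55 other pathway genes 12 instead of 13 were higher. Of 25 called regions 16 kept their call under every setting. The others were 4 at Dll1, 3 at Hes1 and 1 each at Jag1 and Jag2. DESeq2 did not call the Jag2 start (DESeq2 adjusted p = 0.0755) or the Jag1 region 36.5 kb upstream (0.0798). Nor did it call the Hes1 region 30.1 kb away (0.0621) or the Dll1 region 9.60 kb beyond the 3′ end (0.052). Of 6 called genes 3 kept their call under every setting. The distance settings recomputed the scaling on the regions counted. With regions within 10 kb only, 1 gene was higher, Notch2 (0.21), and Dll1 (-0.13, edgeR adjusted p = 0.168) and Rbpj (-0.038, 0.762) turned. At gene ends Dll1 was -0.035 (edgeR adjusted p = 0.797), Notch2 (0.32) and Jag1 (0.29) were called higher, and Rbpj has no region there. Dll1, Notch2 and Jag1 have only their start regions at gene ends, and scaled over all regions these were at -0.37, -0.01 and -0.05. Within 10 kb, 4 ONECUT2 sites were counted. With the signal trend removed, the Notch2 start was 0.30 (edgeR adjusted p = 0.0319), the Dll4 region 6.13 kb upstream was 0.41 (0.0009), and the starts of Notch1 (-2.39), Dll4 (-0.75) and Nrarp (-0.60) stayed lower while those of Dll1 (-0.09) and Jag2 (-0.15) were no longer called, nor were the Hes1 regions 8.69 kb (-0.10) and 55.2 kb (-0.37) away. The cause of the shifts with the trend was not tested. Depth limits the weak regions: RANKL libraries held fewer reads, and the lowest count in a region of these genes was 6. Scaling by library size only moved the median of all regions from 0.06 to 0.15.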
